A study of Mus musculus with 6 samples.

Results

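Complement components and regulators were followed as 8 genes picked by symbol from the deposited table of 26969 genes. They are C3, the central component; C4b, C1ra and C1s1 of the classical pathway; Cfb of the alternative pathway; and the inhibitors Serping1, Cd55 and Cd59a. All 8 were in the table and all 8 passed the filter on low counts. The material was wild-type mouse chondrocytes, the matrix-producing cells of cartilage, in 6 poly(A)-selected RNA libraries, 3 described as mAC and 3 as mAC_Mito. The design sets normal chondrocytes against chondrocytes given transplanted mitochondria, which the series title traces to osteocytes. The title and treatment fields call the mAC_Mito samples vehicle and the mAC samples mitochondria, the reverse of what the description field implies. Differences are therefore given as mAC_Mito minus mAC, with no direction read as an effect of mitochondria. The labels used here give no age, sex, strain or passage, and the library protocol speaks of adipose tissue. They do not say that replicates were separate cultures, so the spread behind each p-value may be only technical.

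Complement is a cascade of secreted proteases and their substrates that marks surfaces for clearance. In the classical pathway the recognition protein C1q carries the proteases C1r and C1s, which cut C4 and C2, and the products assemble an enzyme that cuts C3. In the alternative pathway, factor B (Cfb) joins cleaved C3 to form an enzyme that amplifies the cascade. Serping1 encodes C1 inhibitor, which inactivates C1r and C1s, Cd55 encodes decay-accelerating factor, which takes the C3-cutting enzymes apart, and Cd59a encodes a membrane protein that blocks the terminal pore. Most circulating complement is made by the liver, and chondrocytes and synovial fibroblasts are known to transcribe several components themselves.

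Mice carry near-identical second copies of several of these genes, so the sequences that tell a member from its copy decide how far its counts can be trusted. The 60-base stretch of 1 coding exon with the most differences is shown for the 3 classical-pathway members, with the differing bases in capitals, 5′ to 3′ along the transcript (GENCODE M21 transcripts, GRCm38). For C4b it lies on the minus strand in exon 21 of 41, chr17:34735430-34735489, with 13 differences from C4a. For C1ra it lies on the plus strand in exon 11 of 11, chr6:124522654-124522713, with 11 differences from C1rb. For C1s1 it lies on the minus strand in exon 12 of 12, chr6:124531486-124531545, with 17 differences from C1s2.
C4b: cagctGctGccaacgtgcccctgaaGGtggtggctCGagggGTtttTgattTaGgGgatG
C4a: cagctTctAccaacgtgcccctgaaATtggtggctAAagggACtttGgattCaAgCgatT
C1ra: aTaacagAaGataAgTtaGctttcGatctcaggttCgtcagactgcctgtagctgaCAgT
C1rb: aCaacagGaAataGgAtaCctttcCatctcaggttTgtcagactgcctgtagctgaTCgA
C1s1: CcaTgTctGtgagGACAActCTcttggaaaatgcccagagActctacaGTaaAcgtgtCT
C1s2: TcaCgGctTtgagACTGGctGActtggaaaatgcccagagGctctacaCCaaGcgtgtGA

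Elsewhere the copies are closer to each other. Over the aligned coding sequence C1ra was 98.0% identical to C1rb, C4b 96.1% to C4a, C1s1 95.7% to C1s2, Cd55 93.0% to Cd55b and Cd59a 85.3% to Cd59b. The longest run of identical bases was 757 for C1ra, 433 for C4b, 229 for C1s1, 198 for Cd55 and 47 for Cd59a. Cut into all 50-base words, 48.0% of the words in the C1ra transcript also occurred in C1rb, 34.6% of those in C4b transcripts in C4a, 21.8% for C1s1 in C1s2, 8.0% for Cd55 in Cd55b and 3.87% for Cd59a in Cd59b. Cd55b itself was not analysed here. Cfb has no second copy of this kind, but 73.0% of its words also occurred in Gm20547, a read-through model that runs over Cfb on the same strand. C3 and Serping1 shared no 50-base word with a transcript of another gene. Counts of C3 and Serping1 are thus the least exposed to how reads that fit several genes were assigned, and those of Cfb, C1ra and C4b the most.

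None of the 8 genes differed between the groups beyond the spread of the libraries. With edgeR's quasi-likelihood test the Benjamini-Hochberg adjusted p over 17645 genes was 0.99992 for each, 0 of 8 had an unadjusted p under 0.05, and the groups overlapped for all 8. In bulk samples fewer cells of a type and less RNA per cell cannot be told apart. Over all genes tested 0.00567% passed the adjusted threshold, 3.09% had an unadjusted p under 0.05 and 8.31% did not overlap between the groups. The median log2 fold change of the 8 was -0.0050, with 4 above and 4 below 0, beside 0.0016 over all genes tested. For 6 of the 8 the 95% interval of the fold lay within 1.5-fold in either direction. C4b and Serping1 were the exceptions, with intervals of 0.826 to 1.62 and 0.633 to 1.31 times the mAC level. DESeq2 also called 0 of the 8.

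**Figure D1:**
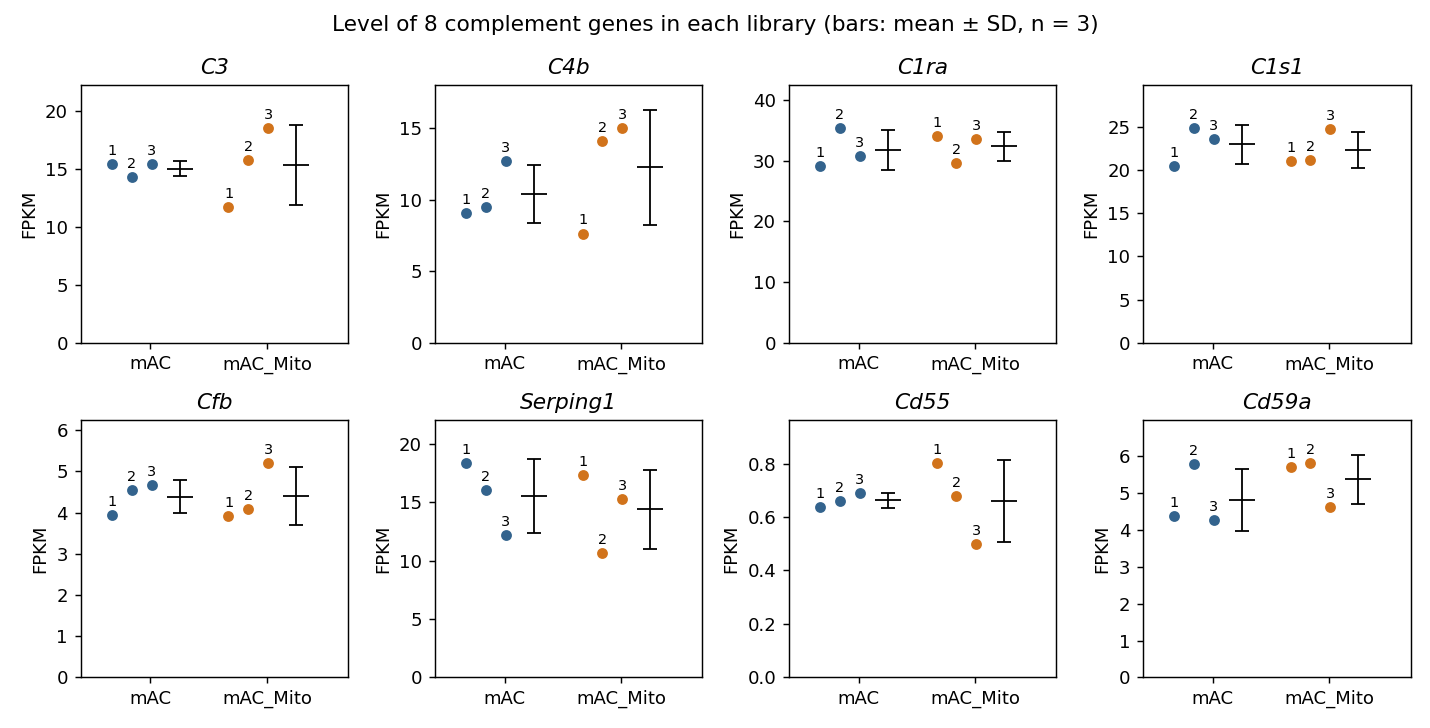
FPKM of each gene (vertical axes, starting at 0) in the 3 mAC libraries (blue) and the 3 mAC_Mito libraries (orange), numbered by replicate, with the mean ± SD of each group beside them. The groups overlap in every panel, and relative to its mean the spread is widest for C4b, from 7.63 to 15.02 FPKM.

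Per kilobase of transcript model (FPKM), the order of the levels over the 6 libraries was C1ra, C1s1, C3, Serping1, C4b, Cd59a, Cfb and Cd55. C1ra was above C1s1 and C1s1 above C3 in 6 of 6 libraries, without overlap of their ranges. C3 and Serping1 were not separated: C3 was above Serping1 in 3 of 6 libraries, and Serping1 above C4b in 4 of 6. C4b exceeded Cd59a in 6 of 6 libraries, Cd59a exceeded Cfb in only 4 of 6, and Cfb exceeded Cd55 in all 6, with a ratio of the means of 6.65. Cd55 was the one member that was scarcely expressed.

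C1ra and C1s1 encode the 2 proteases that form the C1 complex with C1q, and were the most abundant members. The level of C1ra (ENSMUSG00000055172, chromosome 6, 124512405 to 124523443, plus strand) was 29.2, 35.4 and 30.7 FPKM in mAC 1, 2 and 3 and 34.0, 29.6 and 33.5 FPKM in mAC_Mito 1, 2 and 3. In FPKM the highest and the lowest library both belonged to mAC, and the means were 31.8 ± 3.25 and 32.4 ± 2.43 FPKM (SD, n = 3). On log2 CPM, however, the libraries farthest from the median were mAC_Mito 1 and mAC_Mito 2. The log2 fold change was 0.01 (standard error 0.11). C1s1 (ENSMUSG00000038521, chromosome 6, 124530345 to 124542359, minus strand) stood at 20.4, 24.9 and 23.6 FPKM in mAC and at 21.01, 21.2 and 24.7 FPKM in mAC_Mito. In FPKM its lowest and its highest library were both mAC, while on log2 CPM mAC 2 and mAC_Mito 2 lay farthest from the median. Its log2 fold change was -0.06 (standard error 0.10). The 2 genes face each other end to end, with 6901 bases between them. They were also the steadiest members, with a coefficient of variation over the 6 libraries of 8.08% for C1ra and 8.81% for C1s1.

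C4b encodes complement C4, the first substrate of C1s, and had the highest coefficient of variation of FPKM among the members, 26.6%. C4b (ENSMUSG00000073418, chromosome 17, 34728380 to 34743882, minus strand) was at 9.05, 9.46 and 12.7 FPKM in mAC 1, 2 and 3. In mAC_Mito it was at 7.63, 14.1 and 15.02 FPKM. The lowest of all libraries was mAC_Mito 1 and the highest were mAC_Mito 2 and 3, so the group held both extremes. The log2 fold change was 0.21 (standard error 0.21), and the span from lowest to highest was 1.97-fold. Without mAC_Mito 1 the log2 fold change was 0.43 (edgeR, adjusted p = 0.565), and without mAC_Mito 3 it was 0.042 (adjusted p = 0.9998).

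C3 is cut by both pathways, and its fragments tag surfaces and attract leukocytes. The level of C3 (ENSMUSG00000024164, chromosome 17, 57203970 to 57228136, minus strand) was 15.4, 14.2 and 15.4 FPKM in mAC and 11.7, 15.8 and 18.5 FPKM in mAC_Mito. The 3 mAC libraries lay between the lowest and the highest mAC_Mito library, and the SD was 0.652 FPKM in mAC against 3.43 FPKM in mAC_Mito. The log2 fold change was 0.0028 (standard error 0.14), and the 95% interval of the fold ran from 0.808 to 1.24. Cfb (ENSMUSG00000090231, chromosome 17, 34856374 to 34862518, minus strand) was at 3.93, 4.56 and 4.68 FPKM in mAC and at 3.93, 4.09 and 5.21 FPKM in mAC_Mito. Both its lowest and its highest library were mAC_Mito, with a log2 fold change of -0.01 (standard error 0.13).

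The library mAC_Mito 3 held the highest value of C3, C4b and Cfb. By mean level over their genes, a list of interferon-stimulated genes and a list of leukocyte markers were also highest there. By summed FPKM the interferon list was highest in mAC_Mito 1, at 1101 against 957 in mAC_Mito 3. Most of that sum was B2m alone, at 932 FPKM in mAC_Mito 1 and 732 FPKM in mAC_Mito 3. The mean level of 34 interferon-stimulated genes, as log2 CPM minus each gene's mean over the 6 libraries, was 0.528 in mAC_Mito 3 and between -0.205 and -0.009 in the other 5. That of 14 tested macrophage and leukocyte markers was 0.417, against -0.189 to 0.015. Lyz2 and Ctss, the most abundant of them, reached 96.4 and 12.7 FPKM there, against 49.0 to 68.7 and 7.17 to 11.3 FPKM in the other 5. Of the 14, 8 were highest in mAC_Mito 3 and 6 elsewhere: Ptprc, Cd14, Cd53 and Mrc1 in mAC 3, Cd68 in mAC 1 and Spi1 in mAC_Mito 1. The summed FPKM of the 15 leukocyte markers in the table ran from 77.0 to 96.7 in mAC and from 87.4 to 136 in mAC_Mito, most of it Lyz2. None of the defining markers Ptprc, Adgre1 and Csf1r was at 0 in any library, but they averaged only 0.057, 0.950 and 0.771 FPKM over the 6 libraries. Aif1 was at 0 in 1 library and Cx3cr1 in 3. Their part in the levels of C3, C4b and Cfb was not tested. Without mAC_Mito 3 the log2 fold change of C3 was -0.15 (edgeR, adjusted p = 0.9998), and 0 of 8 members passed.

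Serping1, the inhibitor of C1r and C1s, spanned 0.945 on the log2 CPM scale, more than any other member. Serping1 (ENSMUSG00000023224, chromosome 2, 84765387 to 84775444, minus strand) was at 18.4, 16.1 and 12.2 FPKM in mAC 1, 2 and 3 and at 17.3, 10.6 and 15.2 FPKM in mAC_Mito 1, 2 and 3. High and low libraries occurred in both groups, and the log2 fold change was -0.13 (standard error 0.23). The 2 membrane regulators were lower. Cd59a (ENSMUSG00000032679, chromosome 2, 104095801 to 104115354, plus strand) was at 4.38, 5.78 and 4.26 FPKM in mAC and 5.68, 5.81 and 4.61 FPKM in mAC_Mito, a log2 fold change of 0.14 (standard error 0.17). Both groups had a library close to 5.8 FPKM. Cd55 (ENSMUSG00000026399, chromosome 1, 130439027 to 130462744, minus strand) was at 0.638, 0.658 and 0.691 FPKM in mAC, which sat together between the extremes of 0.803, 0.678 and 0.499 FPKM in mAC_Mito. Its log2 fold change was -0.02 (standard error 0.22). Cd55 rested on 169 to 300 counts per library, where counting error alone is up to 7.69%. For the others it was at most 4.25%, below their variation of 8.08% to 26.6% between libraries.

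The order of the libraries in Serping1 was that of the mRNAs encoded by the mitochondrial genome. These 13 mRNAs made up 7.31%, 4.71% and 3.13% of all counts for mAC 1, 2 and 3, against 5.6%, 2.91% and 3.40% for mAC_Mito 1, 2 and 3. Over the 6 libraries Pearson's r between the log2 share and log2 CPM of Serping1 was 0.927 (exact permutation p = 0.00694, two-sided) and Spearman's rho was 1 (exact permutation p = 0.00278, two-sided, the smallest that 6 libraries allow). This relation was looked for after the values were seen, among 36 relations of members with that share or with each other. Adjusted over the 36, the exact permutation p was 0.250 for r and 0.10 for rho, so it did not pass. Leaving out mAC 1 and mAC_Mito 1, the farthest from the median share, r was 0.851, and with the group means removed it was 0.929. For C4b r was -0.803 and rho -0.657 (exact permutation p = 0.0667 and 0.175, adjusted 0.429 and 0.485), and r was -0.824 without the 2 farthest libraries. The pair C1s1 and Cfb had r = 0.855 and rho = 0.943 (exact permutation p = 0.0306 and 0.0167, adjusted 0.367 and 0.300), and r was 0.994 without mAC 2 and mAC_Mito 2. No relation of the 36 passed after adjustment. The libraries stood in the same order on the first principal component of all genes, which held 27.5% of the variance, with scores of -51.1, -5.3 and 28.9 for mAC and -21.2, 32.8 and 15.9 for mAC_Mito. Its part in the level of Serping1 was not tested.

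**Figure D2:**
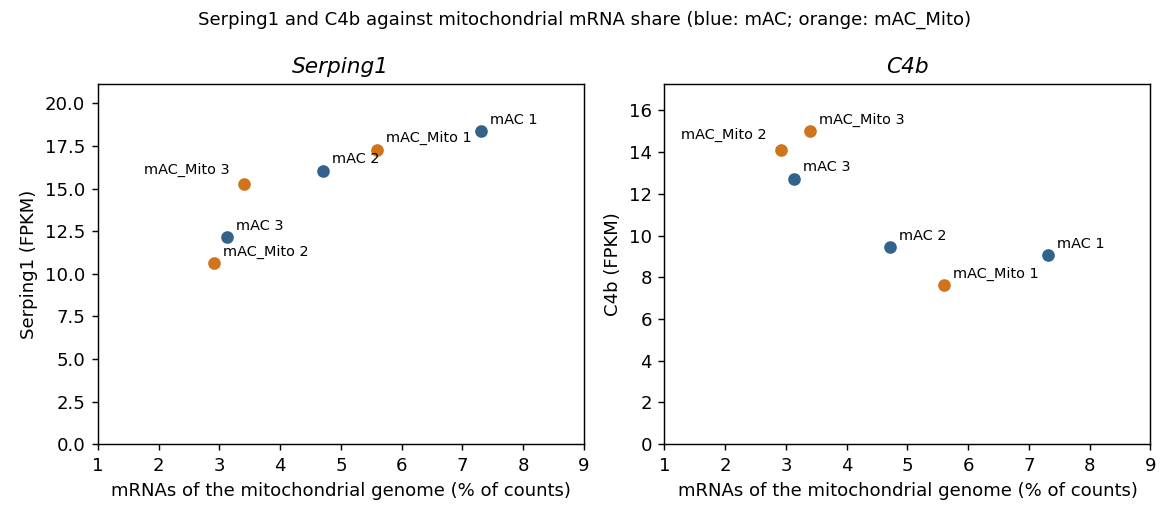
FPKM of Serping1 (left) and C4b (right) against the percent of counts taken by the 13 mRNAs of the mitochondrial genome, 1 point per library, mAC in blue and mAC_Mito in orange. Serping1 is highest in mAC 1 (18.4 FPKM, 7.31%) and lowest in mAC_Mito 2 (10.6 FPKM, 2.91%), while C4b is above 12 FPKM only in the 3 libraries with the smallest shares.

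The genes with the most similar profile were found for the 3 members that spanned most on the log2 CPM scale, among 6145 genes with at least 5 FPKM. Likeness was the root mean square difference of log2 CPM, each gene centred on its own mean over the 6 libraries. For Serping1 the nearest was B2m, whose product is the invariant chain of MHC class I, at 0.058, followed by Rps2-ps10 at 0.059 and Exosc1 at 0.062, against 0.332 for the deviation of Serping1 from its own mean. B2m stood at 908, 828 and 587 FPKM in mAC and 932, 534 and 732 FPKM in mAC_Mito. For C4b the nearest were Megf6 at 0.110, Col1a2, a chain of type I collagen, at 0.113, and Trf, which encodes transferrin, at 0.121. Col1a2 was at 177, 166 and 210 FPKM in mAC and 156, 278 and 259 FPKM in mAC_Mito, and so shared with C4b its lowest library, mAC_Mito 1. For Cd55 they were Rpp38 at 0.090, Hmgb1 at 0.0997 and Zfp617 at 0.109.

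The second copies took a small part of the counts of each pair. C4b held 96.2%, 96.2% and 97.2% of the counts of C4b and C4a together in mAC and 97.8%, 97.5% and 98.9% in mAC_Mito. The groups did not overlap in this share, which averaged 96.6 ± 0.566% and 98.1 ± 0.708% (SD, n = 3). The exact permutation p was 0.10, two-sided, the smallest that 3 against 3 libraries allow, and 0.40 adjusted over the 4 pairs. C4a itself had 142, 166 and 148 counts across mAC 1 to 3 and 74, 137 and 67 across mAC_Mito 1 to 3, with a log2 fold change of -0.68 (standard error 0.31; edgeR, adjusted p = 0.99992). Its groups did not overlap downward on log2 CPM, as was so for 4.38% of all genes. The separation was narrow, with C4a at 0.3227 FPKM in mAC_Mito 2 and 0.3232 FPKM in mAC 1. GENCODE M21 annotates C4a without a coding transcript. C1ra held 87.8% to 91.0% of the counts of C1ra and C1rb, C1s1 97.8% to 99.6% of C1s1 and C1s2, and Cd59a 88.8% to 95.6% of Cd59a and Cd59b, with exact permutation p of 0.30, 0.40 and 0.60 (adjusted 0.533, 0.533 and 0.60). C1s2 had 102, 23 and 112 counts across mAC 1 to 3 and 43, 26 and 27 across mAC_Mito 1 to 3, so that mAC 1 and mAC 3 stood above the rest and mAC 2 below (log2 fold change -1.32, standard error 0.57; edgeR, adjusted p = 0.99992). Gm20547, the read-through model over Cfb, had 69 counts in mAC 2 and 0 in the other 5 libraries, and Mir6972, which lies inside Cfb, had 0 to 5 counts.

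Around these members a wider set of 59 complement genes was sorted by role, of which 47 were in the table and 39 were tested. None passed an adjusted p of 0.05 with edgeR or DESeq2. At an unadjusted p under 0.05 there were 2 higher (Itgam and Itgax) and 1 lower (C1s2), where 2.08% and 1.01% of all genes were. The median log2 fold change of the 39 was 0.0028. Of the 47, 13 reached a mean of 5 FPKM, 6 of them among the 8 members, and 30 were under 1 FPKM.

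**Figure D3:**
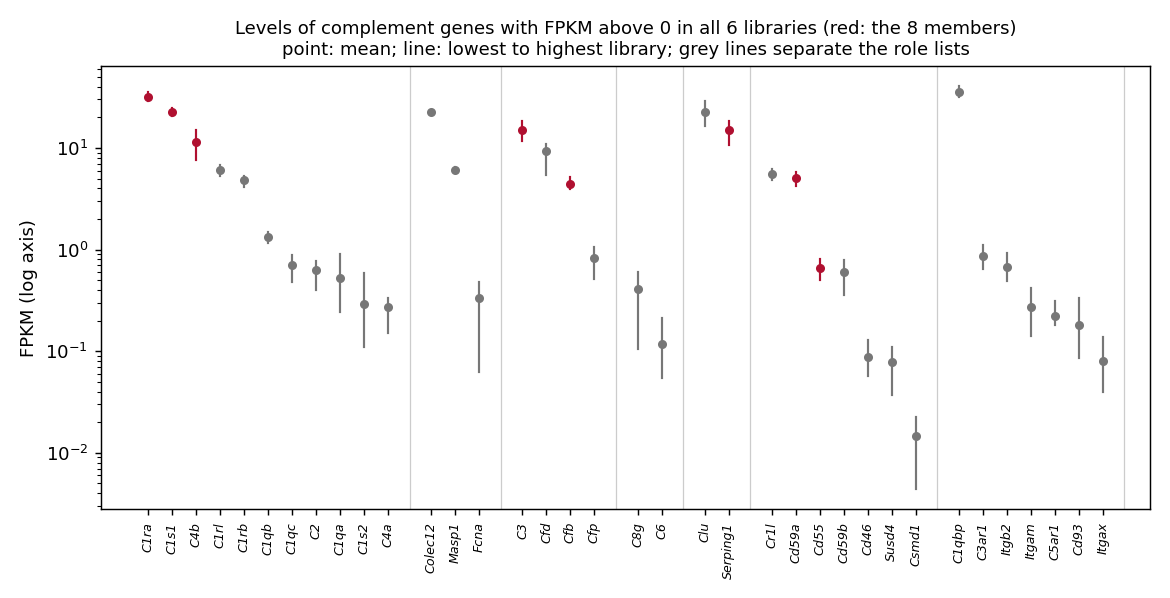
Mean FPKM (log axis) of 36 of the 37 listed complement genes with a value above 0 in all 6 libraries, with a line from the lowest to the highest library; grey lines separate, from left to right, the classical, lectin, C3 and alternative, and terminal pathways, fluid-phase regulators, membrane regulators and receptors. Members (red) include the top genes of the classical and alternative lists, while the terminal pathway stays under 1 FPKM.

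The classical pathway had 11 listed genes, all tested, 4 above and 7 below 0. C1rl, a C1r-like protease, was at 6.10 ± 0.544 FPKM over the 6 libraries (SD) and C1rb at 4.85 FPKM. C1qb, a chain of the recognition protein C1q, was at 1.33 ± 0.142 FPKM, and its partner chains C1qc and C1qa at 0.706 and 0.524 FPKM. C2, which completes the C3-cutting enzyme, was at 0.625 ± 0.148 FPKM. The proteases and C4 were thus expressed well above the recognition protein that carries them and above C2. For the lectin pathway, 4 of 9 genes were tested. Colec12, a scavenger receptor of the collectin family, was at 22.7 ± 0.528 FPKM and Masp1, a protease of the pathway, at 6.01 ± 0.276 FPKM, both nearly level across libraries, and the ficolin Fcna at 0.289 ± 0.211 FPKM in mAC against 0.378 ± 0.0394 in mAC_Mito.

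Beside C3 and Cfb, the alternative pathway list held Cfd, factor D, the protease that cuts factor B, at 8.88 ± 2.99 FPKM in mAC against 9.94 ± 0.320 in mAC_Mito (SD, n = 3). Its value in mAC 1, 5.44 FPKM, was below the other 5, which lay between 9.72 and 10.9 FPKM. Cfp, properdin, which stabilises the alternative pathway enzyme, was at 0.713 ± 0.300 and 0.928 ± 0.133 FPKM. The terminal pathway, which forms the membrane pore, was scarcely detected, with 3 of 7 genes tested. C8g averaged 0.401 FPKM in mAC against 0.426 in mAC_Mito, C6 0.133 against 0.1003 FPKM, and C7 0.0276 against 0.0370 FPKM. Hc, which encodes C5, had 4 counts in mAC 3 and in mAC_Mito 3 and 0 in the other libraries.

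Among the regulators in the fluid phase, 3 of 10 genes were tested. Clu, clusterin, was at 24.8 ± 4.05 FPKM in mAC against 20.1 ± 2.98 in mAC_Mito, with a log2 fold change of -0.33 (standard error 0.17; edgeR, adjusted p = 0.99992). Cr1l is the rodent membrane regulator also known as Crry, which acts on C3 and C4 fragments. It had the highest mean of the 7 tested membrane regulators, 5.48 ± 0.493 FPKM, beside 5.09 FPKM for Cd59a and 0.661 FPKM for Cd55. Cr1l and Cd59a were not separated, with overlapping ranges of 4.85 to 6.22 and 4.26 to 5.81 FPKM. Cd46 was at 0.0887 ± 0.0357 FPKM in mAC against 0.0862 ± 0.0197 in mAC_Mito, and Cd59b at 0.634 ± 0.166 and 0.571 ± 0.214 FPKM.

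All 7 tested receptors had a log2 fold change above 0, where 50.4% of all genes did, with a median of 0.25. Their mean centred log2 CPM was 0.493 in mAC_Mito 3, against 0.063 and 0.112 in mAC_Mito 1 and 2, and 5 of the 7 were highest in mAC_Mito 3. C1qbp, a mainly mitochondrial protein that also binds C1q, was at 34.8 ± 2.51 FPKM in mAC against 36.6 ± 4.23 in mAC_Mito. C3ar1, the receptor of the C3a fragment, was at 0.812 ± 0.0392 and 0.902 ± 0.235 FPKM, and Itgb2, the beta chain of the leukocyte receptors for C3 fragments, at 0.619 ± 0.126 and 0.743 ± 0.173 FPKM. The alpha chains Itgam and Itgax, named after their values were seen, were the 2 listed genes whose groups did not overlap upward, where 3.93% of all genes did so. Itgam had 77, 57 and 85 counts across mAC 1 to 3 and 163, 85 and 130 across mAC_Mito 1 to 3 (log2 fold change 0.80, standard error 0.32; edgeR, adjusted p = 0.99992). Itgax had 14, 21 and 15 against 51, 34 and 37 counts (log2 fold change 1.32, standard error 0.46; edgeR, adjusted p = 0.99992). The count of Itgam was the same in mAC 3 and mAC_Mito 2, and only scaling to library size separated them. Both are leukocyte genes, and the leukocyte marker level given above was highest in mAC_Mito 3 but lowest in mAC_Mito 1. Its part in Itgam and Itgax was not tested.

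**Figure D4:**
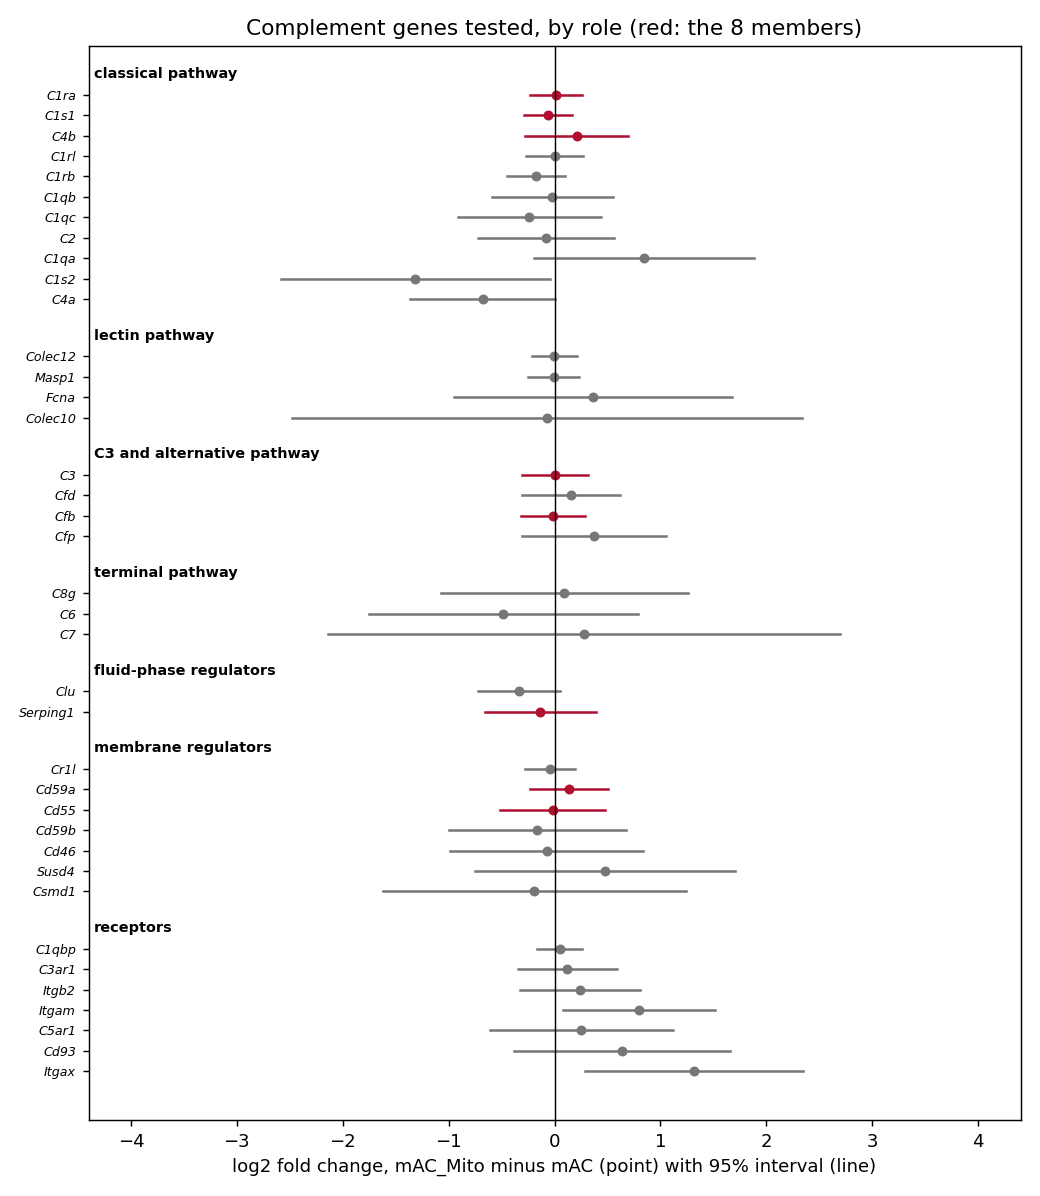
Log2 fold change (mAC_Mito minus mAC, point) and its 95% interval (line) for 38 of the 39 tested complement genes, grouped by role and ordered by level within a role, with the 8 members in red. Every member's interval includes 0, and the intervals widen toward genes of few counts.

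Markers of chondrocytes and of other cells were read in the same libraries. All 14 chondrocyte markers were tested, 13 of them at 5 FPKM or more, led by Col2a1 at 1117 ± 101 and 1390.3 ± 384 FPKM and Cnmd at 645 ± 71.3 and 604 ± 2.75 FPKM. Fibroblast and synovial markers were present in part: 10 of 14 reached 5 FPKM, led by Col1a1 at 346 ± 62.9 and 494 ± 196 FPKM. The remaining markers of that list all averaged under 1 FPKM. The 6 hepatocyte markers in the table, of 8 listed for the main source of plasma complement, summed to between 0.03 and 0.11 FPKM, led by Ahsg and Apob, each under 0.1 FPKM in every library, and Alb was at 0 counts in 4 of 6 libraries. The 7 endothelial markers, Cdh5 and Pecam1 among them, summed to between 0.28 and 0.43 FPKM. Acute-phase signals through NF-kB and interferon are known inducers of C3 and Cfb. Of 24 genes of the acute-phase and NF-kB response, 18 were tested, 3 above and 15 below 0, with a median log2 fold change of -0.17. With edgeR 2 of them were lower at an unadjusted p under 0.05 and none higher, where 1.01% and 2.08% of all genes were. The groups did not overlap downward for 4 of the 18 and upward for 0, where 4.38% and 3.93% of all genes did so. For the 2 most abundant, Hp and Saa3, the groups overlapped. Hp, haptoglobin, was at 118 ± 30.0 and 111 ± 11.6 FPKM and Saa3, serum amyloid A3, at 50.3 ± 18.1 and 43.7 ± 11.2 FPKM. For the 34 interferon-stimulated genes the median was 0.34, with 31 above 0. The most abundant of them, B2m and H2-D1, had log2 fold changes of -0.10 and 0.069. At an unadjusted p under 0.05, 4 of the 34 were higher and 1 lower, against 2.08% and 1.01% of all genes. Of the 34, 24 were highest in mAC_Mito 3, and their mean level was 0.528 there but -0.009 and -0.128 in mAC_Mito 1 and 2. The log2 fold changes of C3 and Cfb were 0.0028 and -0.01. The part of these signals in the levels of C3 and Cfb was not tested.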

How the data were processed

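Per the file headers, the authors deposited counts per gene and FPKM, the count per kilobase and per unit of depth. The headers do not say that the counts are raw, and they were tested as deposited. Bowtie 0.12.2, HISAT2 2.0 and StringTie 1.3.0, and the build mm8, are named without roles, per the submitters' processing notes. How reads were counted, whether by strand, and what was done with multi-mapping reads is not given in the sources used here. All 8 members have the coordinates of GENCODE M21 (GRCm38), as do 86.3% of 26902 shared identifiers. Totals ran from 59116068 to 68378213 counts per library, and every pair of libraries differed beyond sampling noise (chi-square per degree of freedom of 23.6 or more).

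Counts were tested with edgeR 4.0.16 (R 4.3.3; robust quasi-likelihood, TMM, filterByExpr with a minimum count of 10 and a total of 15), which left 17645 genes, after a check on simulated data. Adjusted p-values cover all of them. Standard errors and 95% intervals come from the F statistic, and log2 CPM used a prior count of 2. Alternatives were DESeq2 1.42.0, limma 3.58.1 on log2(FPKM + 1) or log2(FPKM + 0.1), other scalings and filters, a replicate block and leaving out each library. Pairs were aligned with Biopython 1.88 between the member's longest coding transcript and the copy's longest transcript. Named genes are the members, their copies, overlapping genes, in each role list the 3 most abundant other genes, in each other list the 2 most abundant, and the 3 nearest profiles of 3 members. C1qa, C1qc, C2, Hc, Alb, the leukocyte markers other than Lyz2 and Ctss, Itgam and Itgax were named after their values were seen. Members, lists and rules were chosen with earlier results of these data known. 1 listed gene is not reported here by name and is left out of the plots.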

Additional observations from a re-analysis of the deposited data

How the results depend on the processing

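Under all alternatives 0 of the 8 members and 0 of the 39 tested complement genes passed the adjusted threshold. Of 112 refits of single members, 93 kept the sign of the log2 fold change. C4b, C1s1 and Cd59a kept it in every refit, with leave-one-out ranges of 0.042 to 0.43, -0.13 to -0.004 and 0.031 to 0.27. C3 turned to -0.0035 with DESeq2, -0.0017 with its size factors in edgeR and -0.0125 with the replicate block, and Cfb turned to 0.0008 with limma on log2(FPKM + 1). These values, and the -0.004 of C1s1 without mAC_Mito 2, lie so near 0 that no direction can be given. Leaving out each library in turn, the log2 fold change ran from -0.15 to 0.13 for C3, from -0.067 to 0.094 for C1ra, from -0.14 to 0.059 for Cfb, from -0.33 to 0.062 for Serping1 and from -0.23 to 0.16 for Cd55, with adjusted p between 0.832 and 0.9999 in these fits. The group difference in the share of Cd59a in its pair ran from -0.156 to 3.24 percentage points, turning without mAC_Mito 1. Over all genes the count past the threshold was 1, and 5 with DESeq2, 2 with the replicate block, 2 with limma on log2(FPKM + 0.1) and 0 to 4 with a library left out; it was 0 without mAC_Mito 1 or mAC_Mito 3. The cause was not tested.

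Same-numbered libraries did not deviate together (correlations of 0.124, -0.060 and -0.012 for numbers 1, 2 and 3), not every library correlated best with its own number, and the replicate block called 0 members. Among the members depth limits Cd55 most, at 169 to 300 counts per library. Of the other genes named it limits Hc (0 to 4 counts), C7 (0 to 11), Fcna (7 to 52), C8g (12 to 67), C6 (15 to 55), Itgax (14 to 51) and C1qa (19 to 66) more.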
